A study of Mus musculus with 32 samples.

Results

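The 10 genes described here are markers of Kupffer cells, the resident macrophages of the liver: Clec4f, Timd4, Vsig4, Cd5l, Marco, Cd163, Msr1, Adgre1, Csf1r and Cd68. They were chosen by name, and 15 of the 55681 probes of the array carried one of these names (Emr1, the older name, for Adgre1). RNA from whole livers of male C57/BL6 mice, 8 weeks old when the study began, was measured on 32 single-colour arrays, 1 array per liver sample and 4 in each of 8 groups. Mice received a standard diet (C) or a diet lacking methionine and choline (MCD), which produces steatohepatitis, for 3 weeks. M+Fc-GLP-1 and C+Fc-GLP-1 mice had the MCD or the standard diet and, for the last 2 of those weeks, subcutaneous Fc-GLP-1, a GLP-1 analogue fused to an antibody Fc fragment. C and MCD mice received vehicle. The same 4 groups were sampled before partial hepatectomy (PH), which removed 70% of the liver, and 2 weeks after it, with the diet continued. The authors report that fewer MCD than M+Fc-GLP-1 mice survived the operation. Groups after PH therefore hold survivors only, and survival differed between groups. The labels disagree on the agent. Source names give Fc-GLP-1 for both drug groups before PH and for M+Fc-GLP-1 after it, where diet and treatment are said to go on, whereas those of C+Fc-GLP-1 after PH give Fc-GLP-1 before the operation and a dual agonist after it. Descriptions and growth protocol name for all drug groups an agent acting on both the GLP-1 receptor and the glucagon receptor (4.4 mg/kg/day). Comparisons with C+Fc-GLP-1 after PH therefore set groups side by side whose source names differ in the agent. Whether a mouse gave both a sample before and one after PH is not given in the labels.

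Kupffer cells line the sinusoids and clear bacteria, dying cells, aged erythrocytes and complement-coated particles from portal blood. They depend on signalling through the CSF1 receptor, and their identity is maintained by transcription factors that include PU.1, LXRα and SPIC. In steatohepatitis, resident Kupffer cells are known to be lost in part and replaced by cells derived from blood monocytes, which take on some of the resident markers slowly, Timd4 among the last. The 10 genes differ in breadth. Clec4f, a lectin that binds desialylated glycans, is in mice a marker of Kupffer cells alone, whereas Cd68, a glycoprotein of lysosomes, and Adgre1, which encodes F4/80, are carried by most macrophages. In whole liver RNA, fewer cells of a type and less RNA per cell cannot be told apart.

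According to RefSeq (GRCm38), the members lie on 8 chromosomes, with Clec4f at chr6:83644542-83656116, Vsig4 at chrX:96247201-96293438, Cd5l at chr3:87357881-87371074 and Marco at chr1:120474538-120505024. Timd4 lies at chr11:46810786-46844333, Cd163 at chr6:124304636-124330529, Msr1 at chr8:39543232-39642750, Adgre1 at chr17:57358581-57483529 and Cd68 at chr11:69664213-69666170. Promoter sequences were at hand for 7 of the 10 members. The 250 bases before the start of 4 of them are printed because the first 3 genes rose together on the MCD diet before PH and Marco kept apart from them in other comparisons. Capitals mark a PU.1-type core, GAGGAA, or TTCCTC where it lies on the other strand.
Clec4f, chr6:83656117-83656366, minus strand: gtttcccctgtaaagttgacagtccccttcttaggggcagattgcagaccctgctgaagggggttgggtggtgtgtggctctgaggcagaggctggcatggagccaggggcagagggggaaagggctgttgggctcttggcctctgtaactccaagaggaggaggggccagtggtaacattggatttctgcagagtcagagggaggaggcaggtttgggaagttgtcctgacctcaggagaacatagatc
Vsig4, chrX:96293439-96293688, minus strand: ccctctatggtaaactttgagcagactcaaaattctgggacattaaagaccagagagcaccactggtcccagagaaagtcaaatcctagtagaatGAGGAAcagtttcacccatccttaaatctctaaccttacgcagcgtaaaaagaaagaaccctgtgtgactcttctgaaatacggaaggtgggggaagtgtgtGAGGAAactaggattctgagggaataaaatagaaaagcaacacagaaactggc
Cd5l, chr3:87357631-87357880, plus strand: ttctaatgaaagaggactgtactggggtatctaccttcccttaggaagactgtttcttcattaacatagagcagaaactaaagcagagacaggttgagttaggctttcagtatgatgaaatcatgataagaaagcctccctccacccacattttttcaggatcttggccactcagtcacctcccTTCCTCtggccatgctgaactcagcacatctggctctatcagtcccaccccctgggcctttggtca
Marco, chr1:120505025-120505274, minus strand: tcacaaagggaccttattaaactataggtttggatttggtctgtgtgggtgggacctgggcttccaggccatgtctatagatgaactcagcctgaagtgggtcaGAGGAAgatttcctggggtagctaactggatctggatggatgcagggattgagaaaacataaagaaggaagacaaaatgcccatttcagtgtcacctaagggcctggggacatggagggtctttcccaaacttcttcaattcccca
Over the same 250 bases, 4 of the 7 members held GAGGAA on either strand (Vsig4, Cd5l, Marco and Cd68), against 23.3% of all 32851 promoters. It occurred 2 times in Vsig4 and was not found in this window of Clec4f. A match of letters is a description and not a binding site.

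Levels are given as the log2 signal minus the 75th percentile of the same array, so that 1 unit is a doubling and 0 is a bright, but not extreme, spot. Adjusted p is that of limma after Benjamini-Hochberg adjustment over the 21086 genes tested, with 0.05 as the threshold. Between 36.3% and 69.2% of probes had a spot well above background on an array. The 8 groups lay on 5 slides: C and MCD before PH shared 1, M+Fc-GLP-1 and C+Fc-GLP-1 before PH another, the same pair after PH another again, and C after PH and MCD after PH had 1 slide each, read on another scanner. MCD against C before PH and M+Fc-GLP-1 against C+Fc-GLP-1 at each time were therefore comparisons within 1 slide. In all other comparisons of a pair of groups, slide and group cannot be told apart. No member spot was flagged or saturated, and 9 of the 10 members passed the requirement of a signal well above background on all 4 arrays of a group. Clec4f, Vsig4, Cd5l, Marco, Adgre1, Csf1r and Cd68 were well above background on all 32 arrays. Cd163, the haemoglobin scavenger receptor, did not pass: its single probe was above background on 14 of the 32 arrays, on 0 of 4 in C before PH and on 3 of 4 in MCD before PH. Its mean level was -5.50 in C and -3.85 in MCD. With C values raised to the lowest signal well above background on their array where they lay below it, the mean was 1.95-fold higher in MCD. This is not a firm lower bound, because replicate 2 of MCD, not above background, entered as measured at -4.90. The groups overlapped, with C reaching up to -3.75.

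The first question was what the MCD diet alone did. Before PH, 9 of the 9 markers tested had a higher mean in MCD than in C, and 7 of them rose past the threshold, against 10.9% of all genes higher and 26.5% called in either direction. Of the genes called, 41.4% were higher, and 76.9% with median centring. The median log2 difference of the 9 markers was 1.57, beside -0.13 for all genes. The direction of all 9 was the same with normexp and with the authors' values, 2 settings close to each other (median differences 1.64 and 1.62). Median centring adds the same 0.37 to every difference here, so it could not turn these and is no check of direction. By the brightest probe of each gene, the receptors for complement-coated particles and modified lipoproteins rose most.
Vsig4, the complement receptor CRIg, measured 1.47, 2.66, 2.21 and 2.37 in the C samples and 4.93, 3.21, 5.03 and 4.75 in the MCD samples. All 4 MCD samples lay above all 4 C samples, replicate 2 of MCD being the lowest of its group. The difference was 2.30 ± 0.42 (SE, n = 4 per group) on the log2 scale, 4.93-fold, with a limma adjusted p of 0.000201.
Msr1, a scavenger receptor for modified lipoproteins, measured -2.28, -3.14, -3.21 and -2.71 in C and -0.48, -1.23, -0.65 and 0.15 in MCD. The groups did not overlap, and the difference was 2.28 ± 0.47 (4.86-fold, adjusted p = 0.000808). The dimmer probe of the gene rose less, with means of -3.17 in C and -2.09 in MCD, also without overlap.
Cd5l, which encodes the secreted apoptosis inhibitor of macrophages, measured 4.31, 5.22, 4.42 and 4.60 in C and 7.27, 5.62, 6.45 and 6.52 in MCD. Again no C sample reached the lowest MCD sample. The difference was 1.82 ± 0.41 (3.54-fold, adjusted p = 0.00154).

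Cd68 ran from 1.44 to 2.03 in C and from 3.26 to 4.08 in MCD, a 3.88-fold difference (1.96 ± 0.48, adjusted p = 0.00352). Clec4f measured 3.60, 4.18, 3.02 and 3.37 in C and 5.41, 4.27, 4.88 and 4.76 in MCD. The gap between the highest C and the lowest MCD sample was only 0.09, and the 2.44-fold difference (1.29 ± 0.35, adjusted p = 0.00796) was not called after normexp background correction and quantile normalization or with the authors' values. By its brightest probe, Adgre1 was the least certain of the 7. It measured -2.17, -0.33, 0.61 and 0.04 in C and 1.99, -0.84, 1.46 and 1.82 in MCD, so that replicate 2 of MCD lay within the range of C. Its difference of 1.57 ± 0.59 (adjusted p = 0.0487) passed in 2 of 8 fits that each left out 1 array, those without replicate 3 of C or replicate 2 of MCD, and ranged from 1.00 to 2.22 over the 8.
Neither Timd4 nor Marco was called. Timd4, which encodes the phosphatidylserine receptor TIM-4, measured -2.60, -1.72, -2.41 and -2.01 in C and -0.40, -2.38, -0.64 and -1.40 in MCD (0.98 ± 0.51, adjusted p = 0.155). Marco, a scavenger receptor for bacteria, measured 1.95, 2.68, 4.41 and 4.52 in C and 4.80, 3.85, 4.02 and 5.41 in MCD (1.13 ± 0.55, adjusted p = 0.127). For Marco the C samples formed a low and a high pair, and the high pair lay among the MCD samples.

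**Figure D1:**
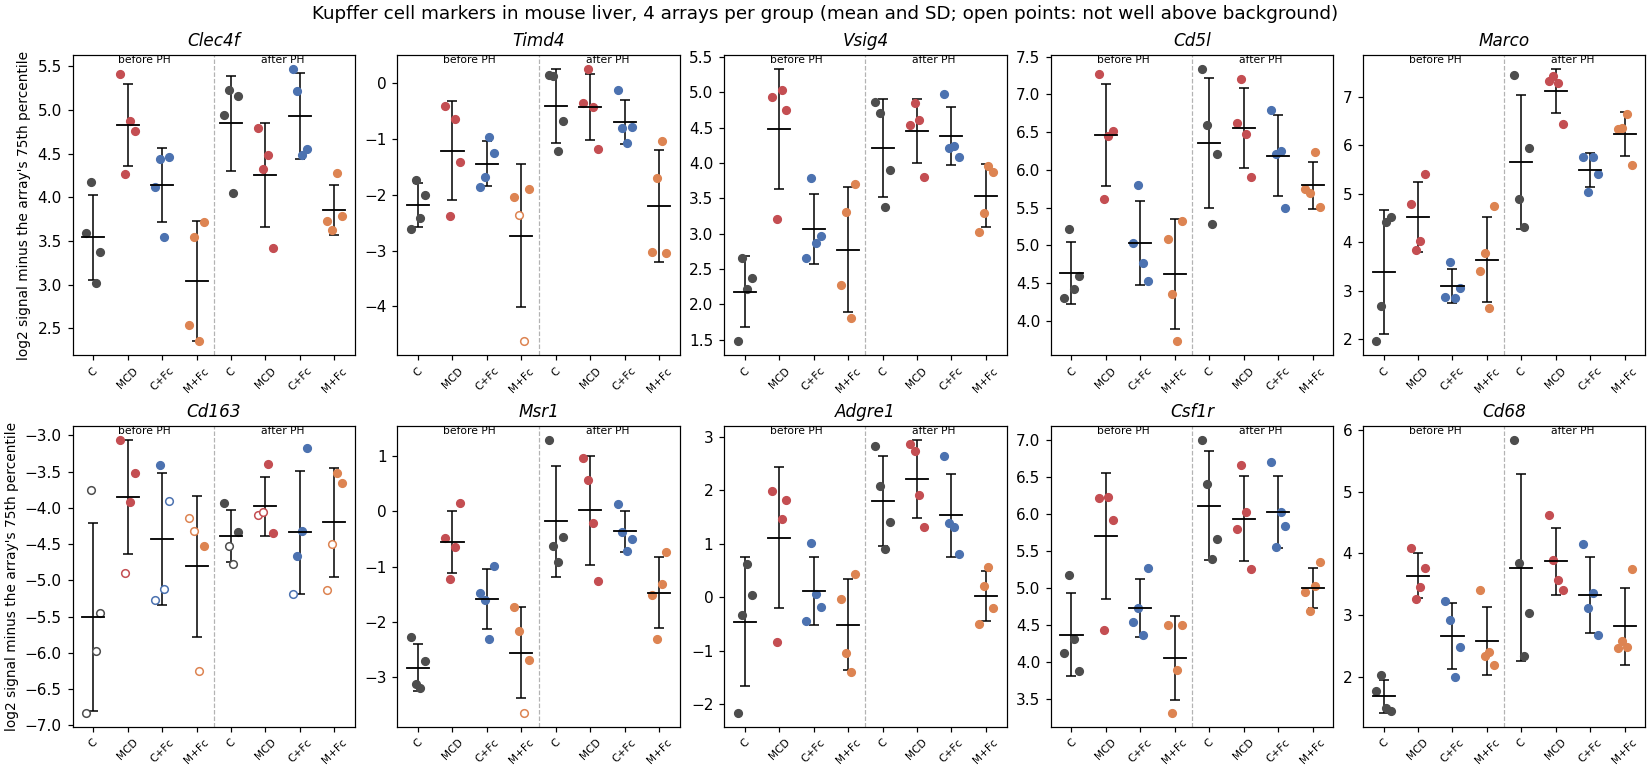
Log2 signal minus the array's 75th percentile (y axis) of the 10 Kupffer cell markers in each of the 8 groups (x axis; Fc-GLP-1 is shortened to Fc). Points are arrays, bars the mean and SD of 4 arrays, open points arrays where the probe was not well above background; in Vsig4, Cd5l, Msr1, Cd68 and Clec4f all MCD points before PH lie above all C points.

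Csf1r, the receptor for CSF1 and IL-34, was represented by 3 probes, which did not move together. The brightest, used for the gene, measured 4.12, 5.18, 4.30 and 3.88 in C and 6.22, 4.44, 6.23 and 5.92 in MCD before PH. Replicate 2 of MCD fell inside the range of C, and the difference was 1.33 ± 0.40 (2.52-fold, adjusted p = 0.0135), not called without replicate 1 or without replicate 3 of MCD. The second probe gave the same direction, with means of -1.59 in C and 0.21 in MCD and no overlap between the groups. The third probe went the other way. It measured 0.14, -0.48, 0.17 and 0.25 in C and -0.74, -1.24, -0.96 and -0.89 in MCD, again without overlap. In the mm9 coordinates of the array files the third probe starts 12064 bases before the brightest. The ligands of the receptor, Csf1 and Il34, differed by 0.51 and 0.08 between MCD and C and were not called, and Csf2 and Csf3 were too dim to be tested. The 2 probes of Msr1 and those of Adgre1 had the same direction as each other in this comparison. Both probes of Cd68 did so too, but the dimmer was above background on 21 of the 32 arrays only.

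**Figure D2:**
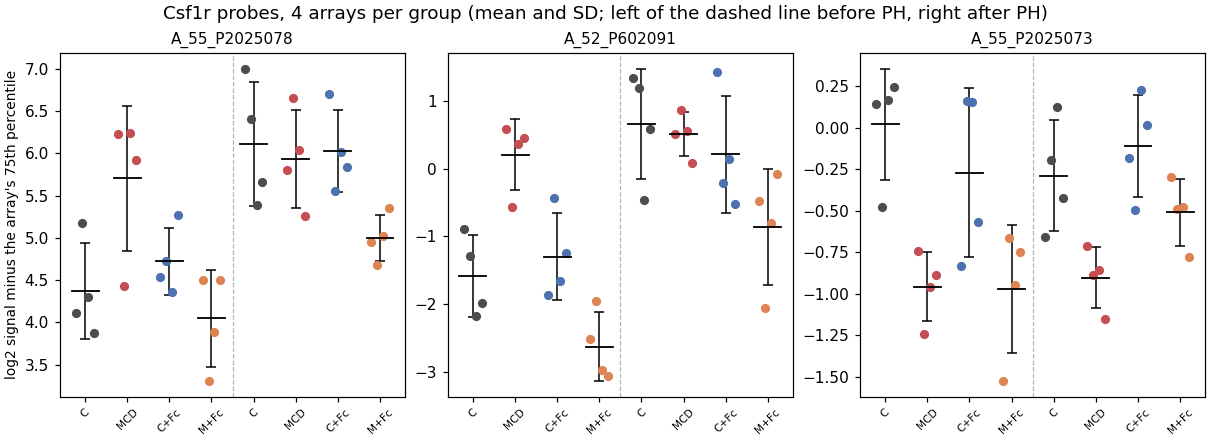
Log2 signal minus the array's 75th percentile (y axis) of the 3 Csf1r probes in the 8 groups (x axis; Fc-GLP-1 is shortened to Fc), points for arrays and bars for the mean and SD of 4 arrays. The probes on the left and in the middle are higher in MCD than in C before PH, the one on the right is lower.

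The next comparisons concerned Fc-GLP-1. In mice on the standard diet, 0 of the 9 markers were called between C+Fc-GLP-1 and C before PH (2.11% of all genes were), 2 of them with an unadjusted p under 0.05 in limma, and 8 had a higher mean with Fc-GLP-1. The intervals were wide: the difference for Clec4f was 0.60 with a 95% interval from -0.12 to 1.32. In mice on the MCD diet all 9 markers had a lower mean with Fc-GLP-1 (M+Fc-GLP-1) than without (MCD), and 5 fell past the threshold, against 2.78% of all genes lower and 7.23% called in either direction. Of the genes called 61.5% were higher, 16.5% with median centring and 45.4% with the authors' values. The median log2 difference was -1.65, beside 0.10 for all genes. These groups lay on different slides.
Clec4f measured 2.54, 3.55, 2.36 and 3.71 in M+Fc-GLP-1, all below the lowest MCD sample at 4.27, and was 3.45-fold lower than in MCD (-1.79 ± 0.35, adjusted p = 0.00369). It remained called in all 8 fits that left out 1 array and under the other 7 settings tried. Cd5l measured 5.09, 4.35, 3.73 and 5.33 in M+Fc-GLP-1, again below every MCD sample, and was 3.58-fold lower (-1.84 ± 0.41, adjusted p = 0.00769). Msr1 fell 4.03-fold without overlap, Vsig4 fell 3.26-fold and Csf1r fell 3.15-fold, these last with overlap because of replicate 2 of MCD. For Msr1, replicate 3 of M+Fc-GLP-1 at -3.65 was not well above background, and the call was lost without that array. The call of Vsig4 was lost without replicate 1 or 3 of MCD or replicate 3 of M+Fc-GLP-1, and that of Csf1r without replicate 1 of MCD. The value for Csf1r is that of its brightest probe. Its second probe fell too, with means of 0.21 in MCD and -2.63 in M+Fc-GLP-1, but the third did not (-0.96 and -0.97). In M+Fc-GLP-1 the second probe was well above background on 2 of 4 arrays only. The dimmer probe of Msr1 fell less, with means of -2.09 and -2.93. Of the 4 not called, Timd4 had the lowest adjusted p, 0.0633, and Marco the highest, 0.338. With the mean of probes in place of the brightest, Adgre1 was called lower too.

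The dependence of the diet effect on the drug was tested as an interaction, in which an effect of the slide common to both its groups cancels. It was negative for 9 of 9 markers, and called for 5 (Clec4f, Vsig4, Cd5l, Msr1 and Csf1r), against 2.57% of all genes called negative and 6.18% in either direction. Of the genes called 58.5% were positive, 5.85% with median centring, 46.4% with normexp and 37.6% with the authors' values. The size was -3.25 ± 0.67 for Msr1, which means that the log2 effect of the MCD diet was smaller by that amount with Fc-GLP-1 (adjusted p = 0.00684). It was -2.39 ± 0.50 for Clec4f (adjusted p = 0.00778) and -2.59 ± 0.59 for Vsig4 (adjusted p = 0.0123). Only Msr1 and Csf1r were still called with the authors' values, and Csf1r in 8 of 16 fits that left out 1 array. The interaction of Csf1r is that of its brightest probe, and the second probe had the same direction. The third was lower on the MCD diet both without Fc-GLP-1 (means 0.02 in C and -0.96 in MCD) and with it (-0.27 and -0.97). The dimmer probe of Msr1 gave a smaller interaction in the same direction. With the mean of probes, the interaction of Adgre1 was called too.
Within the slide that held both drug groups, 10.3% of all genes were called in either direction, 51.6% of them higher with the MCD diet. Of the 9 markers 0 were called higher and 1 lower, counts near those shares. The 1 called was Clec4f. It measured 4.12, 4.44, 3.55 and 4.46 in C+Fc-GLP-1 and was 2.14-fold lower in M+Fc-GLP-1 (-1.10 ± 0.35, adjusted p = 0.0430). This call was lost in 5 of 8 fits that left out 1 array (the exceptions were those without replicate 3 of C+Fc-GLP-1 or replicate 2 or 4 of M+Fc-GLP-1) and in 4 of 7 other settings, the fit to this slide alone among them. Timd4 measured -1.86, -1.67, -0.97 and -1.26 in C+Fc-GLP-1 and -2.04, -2.36, -4.63 and -1.89 in M+Fc-GLP-1, without overlap but not called (-1.29 ± 0.51, adjusted p = 0.104). For Timd4, replicates 2 and 3 of M+Fc-GLP-1 were not well above background. Marco alone had a higher mean in M+Fc-GLP-1 (0.55 ± 0.55, adjusted p = 0.581).

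**Figure D3:**
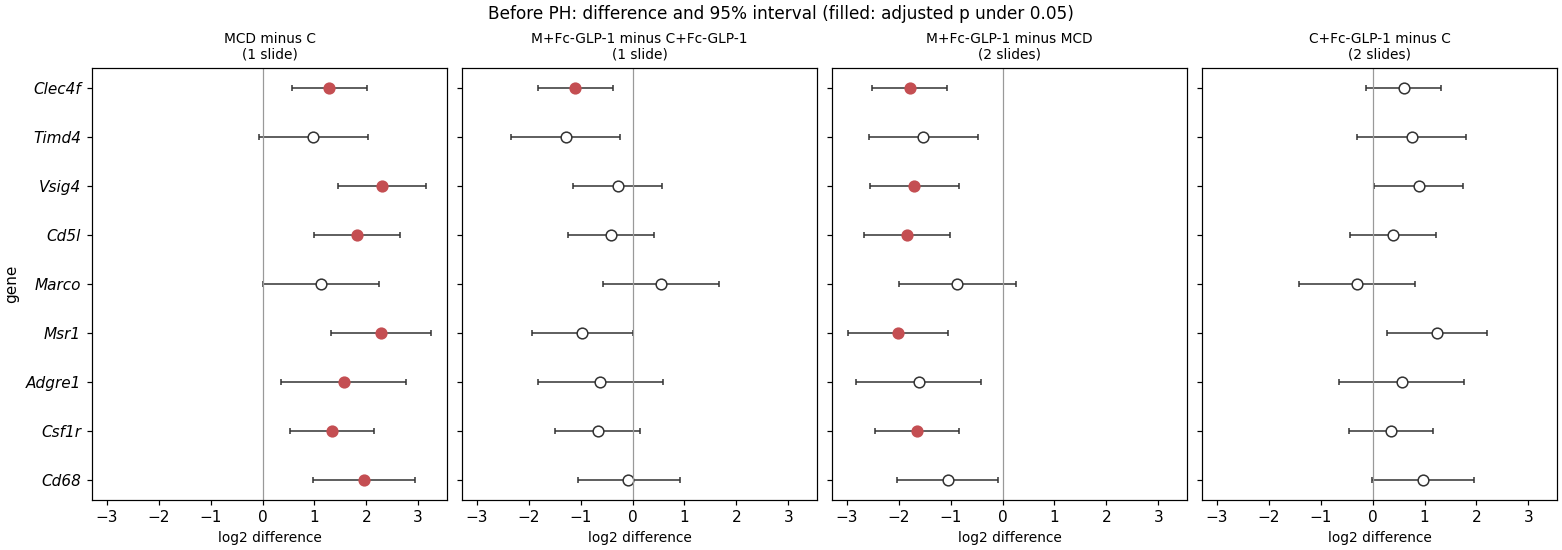
Log2 difference of each marker (x axis) with its 95% interval in 4 comparisons before PH, the genes on the y axis, n = 4 arrays per group. Filled points passed an adjusted p of 0.05: 7 on the right of 0 for MCD minus C, 1 on the left for M+Fc-GLP-1 minus C+Fc-GLP-1, 5 on the left for M+Fc-GLP-1 minus MCD and 0 for C+Fc-GLP-1 minus C.

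Marco and Clec4f had the lowest correlation of all pairs of markers, and the log2 level of Clec4f was therefore subtracted from that of Marco on each array, which compares only their changes. The pair was chosen for its values, and these differences are descriptions with no test. Under Fc-GLP-1 before PH, Marco minus Clec4f was -1.24, -0.85, -0.70 and -1.40 with the standard diet and 0.85, 0.23, 0.28 and 1.03 with the MCD diet, means that lay 1.65 apart. The 4 arrays of each diet did not overlap. After PH the difference was 1.82 larger with the MCD diet under Fc-GLP-1 and 2.06 larger without it, both without overlap, although the highest C array (2.52) came close to the lowest MCD array (2.54). Without the drug before PH the means lay -0.16 apart, and the groups overlapped.

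At 2 weeks after PH, 0 of 9 markers were called by limma between MCD and C, and 1, Marco, had an unadjusted p under 0.05, while 12.1% of all genes were called. The median difference of the 9 markers was 0.20. Without replicate 1 of C, 1 marker was called. C+Fc-GLP-1 against C gave 0 of 9 as well, 0 with an unadjusted p under 0.05, beside 2.06% of all genes.
In M+Fc-GLP-1 against MCD, 9 of 9 means were lower and 2 markers fell past the threshold, against 6.5% of all genes called in either direction. Both comparisons of a drug group with its untreated group after PH differed in slide and scanner as well, and these cannot be told apart from the drug. Adgre1 measured 2.87, 2.74, 1.91 and 1.32 in MCD and -0.51, 0.21, 0.56 and -0.20 in M+Fc-GLP-1, without overlap, 4.57-fold lower (-2.19 ± 0.59, adjusted p = 0.0246). Timd4 measured -0.35, 0.27, -0.41 and -1.17 in MCD and -3.02, -1.70, -1.03 and -3.04 in M+Fc-GLP-1, 3.44-fold lower (-1.78 ± 0.51, adjusted p = 0.0336). Adgre1 was called in 4 of 8 fits with 1 array left out and Timd4 in 3 of 8, the count falling to 0 without replicate 1 or 2 of MCD or replicate 1 of M+Fc-GLP-1.
Within 1 slide, against C+Fc-GLP-1, 8 of 9 means were lower in M+Fc-GLP-1 and 2 were called, against 12.8% of all genes. Clec4f measured 5.48, 5.22, 4.48 and 4.56 in C+Fc-GLP-1 and 3.74, 3.63, 4.28 and 3.78 in M+Fc-GLP-1, without overlap, 2.11-fold lower (-1.08 ± 0.35, adjusted p = 0.0407). Timd4 was 2.84-fold lower (-1.51 ± 0.51, adjusted p = 0.0489), with a slight overlap. Both calls were lost with normexp, with the authors' values and without the filter. That of Timd4 was also lost with median centring, with the replicate block and with only these 8 arrays, and was kept in 1 of 8 fits that left out 1 array, against 3 of 8 for Clec4f. In the latter fits 0 markers were called without replicate 1 or 2 of C+Fc-GLP-1 or replicate 1, 2 or 4 of M+Fc-GLP-1. Of the markers not called, Vsig4, Msr1, Adgre1 and Csf1r had the lowest adjusted p values, from 0.0882 to 0.203.

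The comparisons over time had a slide for each group and, for C and MCD, another scanner after PH, so that time and these cannot be told apart. In C, 9 of 9 markers rose from before to 2 weeks after PH, against 6.08% of all genes higher and 14% called in either direction. Of the genes called 43.6% were higher, 64.3% with median centring and 54.5% with normexp. The median log2 difference was 2.03, beside -0.08 for all genes. The largest was that of Msr1, which measured 1.29, -0.63, -0.92 and -0.47 after PH, above all samples before PH, a 6.29-fold difference (2.65 ± 0.47, adjusted p = 0.000624). Vsig4 was 4.09-fold higher, at 4.86, 4.70, 3.38 and 3.90, also without overlap. The dimmer probe of Msr1 rose less, with means of -3.17 before and -1.60 after PH. For Csf1r the brightest and the second probe rose, but the third did not, with means of 0.02 before and -0.29 after PH. Replicate 1 of C after PH was the highest of its group for 8 of the 9 markers, all but Clec4f, with Marco at 7.46 and Cd68 at 5.84. The same array stood apart for genes of recruited macrophages, at 1.56 for Gpnmb, where the others ran from -6.43 to -3.25, and at 4.93 for Chil3, where they ran from -2.60 to -0.13. In this comparison 8 of 13 markers of recruited monocytes and macrophages were called higher and 0 lower, with a median difference of 2.14, and their part in the result was not tested. Without replicate 1 of C after PH, 7 of 9 Kupffer cell markers were called, as without replicate 1 of C before PH, and 5 of 9 when these 8 arrays were fitted alone.
In MCD, whose means before PH were above those of C, 1 of 9 rose past the threshold, against 9.43% of all genes called in either direction. The median difference was 0.23. That gene was Marco, at 4.80, 3.85, 4.02 and 5.41 before PH and 7.34, 7.44, 7.29 and 6.44 after it, 6.10-fold higher without overlap (2.61 ± 0.55, adjusted p = 0.00298). Marco was also the 1 marker called in C+Fc-GLP-1 (0.835% of all genes) and in M+Fc-GLP-1 (1.71%). It measured 2.88, 3.59, 2.85 and 3.06 before and 5.75, 5.03, 5.77 and 5.40 after PH in C+Fc-GLP-1, 5.26-fold higher (adjusted p = 0.0360). In M+Fc-GLP-1 it measured 3.39, 3.79, 2.64 and 4.75 before and 6.33, 6.35, 6.65 and 5.59 after PH, 6.02-fold higher (adjusted p = 0.0107). The rise of Marco passed the threshold in all 4 groups, with log2 differences between 2.27 and 2.61. In C+Fc-GLP-1 the call was lost in 6 of 8 fits with 1 array left out, all but those without replicate 2 before or replicate 2 after PH, while the difference stayed between 2.30 and 2.56. In M+Fc-GLP-1 it was lost without replicate 3 before PH, the difference then being 2.26. The difference in time course between both diets under Fc-GLP-1 was called for 0 of 9 markers, 0 with an unadjusted p under 0.05 in limma, and for 0.0948% of all genes.

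**Figure D4:**
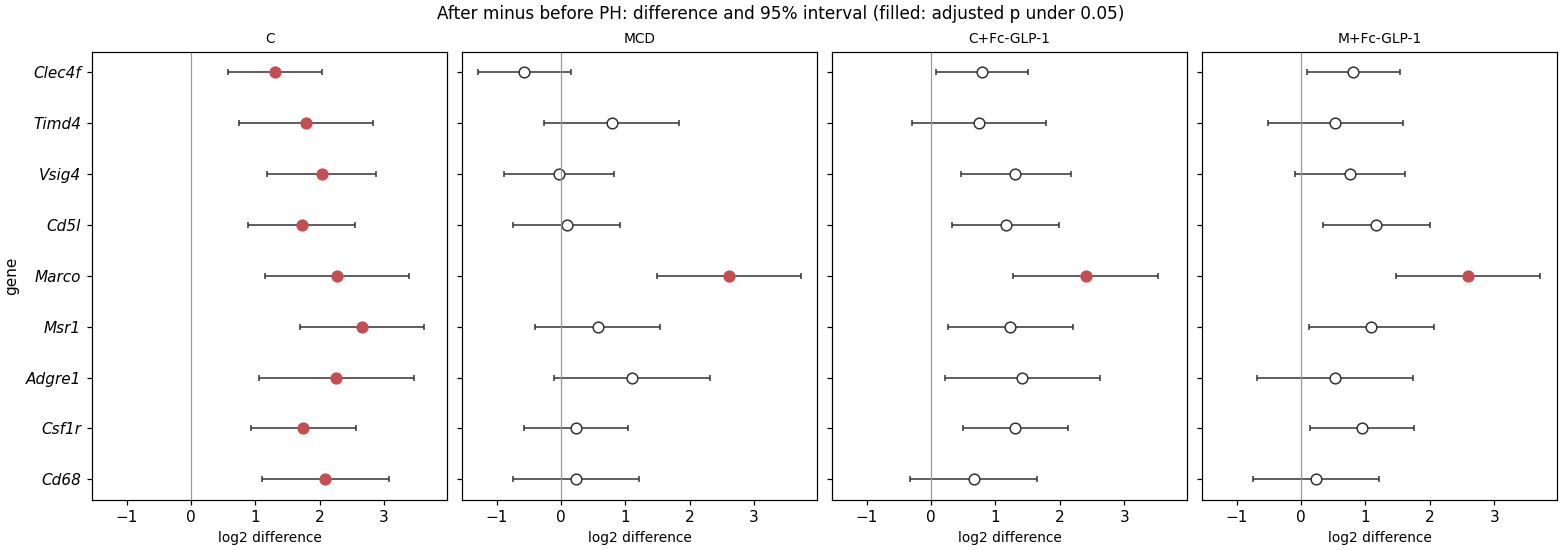
Log2 difference of each marker after minus before PH (x axis) with its 95% interval in the 4 groups, the genes on the y axis, n = 4 arrays at each time. Filled points passed an adjusted p of 0.05: all 9 markers in C and Marco alone in each of the other groups.

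Other genes of Kupffer cells moved with the 10 markers in part. Of 16 such genes, all tested, 7 were called higher and 1 lower in MCD than in C before PH. Of all genes, 10.9% were called higher and 26.5% in either direction. The genes for the 3 chains of complement C1q rose, C1qa 3.80-fold (adjusted p = 0.00538), C1qb 3.12-fold and C1qc 2.31-fold. So did Vcam1, an adhesion molecule (5.80-fold), Il18bp, a decoy for IL-18, Mertk, a receptor for dying cells, and Spic. Id3, a regulator of transcription that supports Kupffer cell identity, was lower (-1.11 ± 0.32, adjusted p = 0.0108). In M+Fc-GLP-1 against MCD before PH, 5 of the 16 were lower and 0 higher, against 2.78% of all genes lower and 7.23% called in either direction. The 5 were C1qa, C1qb, C1qc, the ficolin gene Fcna and the folate receptor gene Folr2. Folr2 had the largest difference, 7.11-fold lower (-2.83 ± 0.44, adjusted p = 0.000368), and was also lower than in C+Fc-GLP-1 within 1 slide before PH (-2.12 ± 0.44, adjusted p = 0.00163) and after it (-1.45 ± 0.44, adjusted p = 0.0253). From before to after PH in C, 7 of the 16 were higher and 0 lower, against 6.08% of all genes higher and 14% called in either direction.

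Markers of other cells also moved, and their part in the results above was not tested. Of 14 markers of recruited monocytes and macrophages, 13 were tested, and in MCD against C before PH 8 were called higher and 2 lower. Of all genes, 10.9% were called higher and 26.5% in either direction. Trem2 and Gpnmb, which are found in lipid-laden macrophages, were 24.5-fold and 36.4-fold higher, and Chil3 was 19.3-fold higher. Itgam and Fabp5 were the 2 lower genes. In M+Fc-GLP-1 against MCD before PH 0 of the 13 were called in limma, against 7.23% of all genes, 4 with an unadjusted p under 0.05, and 9 had a lower mean. The summed linear level of the 13 ran from 46.6 to 114 in C, 55 to 93.5 in MCD, 151 to 341 in C+Fc-GLP-1 and 56.1 to 72.3 in M+Fc-GLP-1 before PH, and after PH from 81.4 to 314, 78.4 to 105, 101 to 241 and 61 to 133. Such a sum is set by its brightest probes, here that of Fabp5, which is also expressed in other liver cells and whose level before PH ran from 24.7 to 91.4 in C, 7.43 to 11.2 in MCD and 111 to 301 in C+Fc-GLP-1. The sum of the other 12 ran from 19.1 to 28.5 in C, 47.6 to 82.2 in MCD, 38.3 to 42.4 in C+Fc-GLP-1 and 46.6 to 59 in M+Fc-GLP-1 before PH, so that C lay below the other groups. After PH it ran from 30.4 to 280, 55.7 to 92.5, 42.5 to 157 and 44 to 120.
Of 9 markers of neutrophils, lymphocytes and dendritic cells, all tested, the sum ran from 6.55 to 7.62 in C, 6.73 to 25.1 in MCD, 7 to 12 in C+Fc-GLP-1 and 5.34 to 7.88 in M+Fc-GLP-1 before PH. After PH the ranges were 13.8 to 33.8, 54.5 to 141, 13 to 53 and 9.84 to 40.3. Of 19 tested markers of other liver and blood cells, 6 were called higher and 3 lower in MCD than in C before PH. Of all genes, 10.9% were called higher and 26.5% in either direction. In M+Fc-GLP-1 against MCD before PH 1 of the 19 was called higher and 2 lower, against 7.23% of all genes in either direction. Among the 19, the neutrophil genes S100a8 and S100a9 were 8.32-fold and 5.95-fold higher in MCD than in C before PH. Both were lower in M+Fc-GLP-1 (-3.01 ± 0.67 and -2.55 ± 0.61 against MCD). The sum of the hepatocyte genes Alb, Ttr and Apoa1 lay between 1230 and 3040 in all groups, with 1770 to 2790 in C and 1500 to 1680 in MCD before PH. Between M+Fc-GLP-1 and C+Fc-GLP-1 after PH, 3 of 19 tested markers of other liver and blood cells were called, all lower, against 12.8% of all genes. 15 of the 19 had a lower mean. Of the 3 called, Clec4g, a lectin of the sinusoidal endothelium, was 2.11-fold lower (adjusted p = 0.0283).

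Ranked by group means over the 8 groups, 5 of the 9 markers were lowest in M+Fc-GLP-1 before PH and 3 in C before PH, and 5 were highest in MCD after PH. Marco was the exception at the low end, with its lowest mean in C+Fc-GLP-1 before PH. Its means spanned 4.03 log2 units, from 3.09 to 7.13, against 1.89 units for Clec4f, from 3.04 to 4.93. A ranking sets the closest means side by side, here across slides and scanners, and an overlap of neighbours does not test whether their means differ. Of the 63 pairs of neighbouring groups in these rankings 62 overlapped. The exception was Cd68, whose C samples before PH all lay below those of M+Fc-GLP-1 before PH.

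Across the 32 arrays the 36 pairs of markers had a median Pearson r of 0.77, from 0.38 for Clec4f with Marco to 0.91 for Vsig4 with Cd5l. When the group means were removed the median r was 0.56, so that markers also deviated together between arrays of 1 group, as replicate 2 of MCD before PH shows. These arrays share slides, groups and scaling, and the values are descriptions. Of the 5 genes outside the list most like Clec4f over the 32 arrays, 4 were Pilrb1 (r = 0.87), Folr2 (0.85), the cytokine gene Il1b (0.84) and Pilrb2 (0.83). The 5 most like Adgre1 were Pira2 (r = 0.93), the formyl peptide receptor gene Fpr1 (0.92), Pira7 (0.92), Pira11 (0.91) and Ly86 (0.91). The Pilrb and Pira genes belong to families of similar sequence, in which 1 probe can detect several members.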

How the data were processed

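Total RNA from mouse liver, labelled with Cy3, was hybridised to 32 Agilent arrays. The authors deposited the linear intensity values of the scanner software (Feature Extraction 10.7.3.1), background corrected and detrended within each array per the file headers, and a table of normalized log2 values; limma is the tool named per the labels. Depth has no counterpart on arrays: 4 arrays per group limit the precision. Groups and replicate numbers follow the labels, which call the arrays biological replicates.

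For each array, log2 of the processed signal minus its 75th percentile over the 59305 non-control spots was computed; 426 probes with a flagged spot were left out, and spots of a probe were averaged. Symbols came from the RefSeq accession where it matched (27656 of 55681 probes) and otherwise from the file. A probe was kept (28951 were) if all 4 arrays of any group showed it well above background, and the probe with the highest mean stood for a gene (21086 genes). One limma model (3.58.1, R 4.3.3) over all groups gave the 14 comparisons, and was tested on simulated data. The members and gene lists were chosen with earlier results of these data known; every member is named, and of the other lists any gene past the threshold could be. The 5 genes most like Clec4f and Adgre1 were those with the highest Pearson r; 1 of them is not reported here. Alternatives were normexp background correction (offset 50) with quantile normalization, median centring, no filter, the mean of probes, only the arrays compared, a replicate block, leaving out arrays, and the authors' log2 values, which were used only within samples before or within samples after PH because the deposited table's quantiles differ between these sets (75th percentile 8.57 and 9.215). The centring of that table is not stated.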

Additional observations from a re-analysis of the deposited data

Results flagged for a closer look

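The effect of the MCD diet before PH differed between treated and untreated mice by a test of the difference itself for 5 markers, with log2 interactions of -2.39 for Clec4f, -2.59 for Vsig4, -2.23 for Cd5l, -3.25 for Msr1 and -2.01 for Csf1r. In each case the diet effect, by the brightest probe of the gene, was positive without Fc-GLP-1 and negative with it. The negative effect was past the threshold for Clec4f alone.

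Of 80 sets of 4 arrays (10 markers in 8 groups), 4 held an array far from the other 3, 5% of the sets; chance gives about 1 in 20. The gap to the nearest array, as a share of the range of the group, was 0.843 for Vsig4 in MCD before PH (replicate 2 lowest), 0.835 for Vsig4 in C+Fc-GLP-1 after PH (replicate 1 highest), 0.847 for Marco in MCD after PH (replicate 4 lowest) and 0.912 for Cd68 in M+Fc-GLP-1 after PH (replicate 4 highest). Replicate 2 of MCD before PH was also the lowest of its group for Clec4f, Timd4, Cd5l, Marco, Msr1, Adgre1, Csf1r and Cd68, and without it 7 markers were called between M+Fc-GLP-1 and MCD and 7 for the interaction.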

How the results depend on the processing

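Over 34 called marker differences and their alternatives, 538 values were computed; 442 stayed past the threshold in the same direction, 96 kept the direction without passing, and 0 turned. The number of markers called between M+Fc-GLP-1 and C+Fc-GLP-1 before PH, 1 of 9, became 0 with normexp, without the filter, with the authors' values or with only the arrays compared, and 2 with the mean of probes. The same comparison after PH, 2 of 9, became 0 with normexp, without the filter or with the authors' values, 1 with median centring, 1 with the replicate block and 4 with the mean of probes. The interaction, 5 of 9, became 3 with normexp, 8 with median centring and 2 with the authors' values. M+Fc-GLP-1 against MCD after PH, 2 of 9, became 1 without the filter, with the authors' values or with only the arrays compared. Over time, C+Fc-GLP-1 (1 of 9) gave 2 with normexp and 0 with median centring, M+Fc-GLP-1 (1 of 9) gave 2 with the mean of probes, and C (9 of 9) gave 5 with only the arrays compared. The causes were not tested.

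With 1 array left out in turn, the counts ranged from 3 to 7 for M+Fc-GLP-1 against MCD before PH and for the interaction, 0 to 1 for M+Fc-GLP-1 against C+Fc-GLP-1 before PH, 0 to 1 for MCD against C after PH, 0 to 3 for M+Fc-GLP-1 against MCD after PH, 0 to 2 for M+Fc-GLP-1 against C+Fc-GLP-1 after PH, and 0 to 1 over time in either Fc-GLP-1 group. For MCD against C before PH they ranged from 5 to 7. In no pair of groups did all 4 same-numbered arrays deviate together with a correlation over 0.1 (range -0.19 to 0.52), so the replicate block is a sensitivity check only; it moved the count of no other comparison by over 1.5 times. Median centring moved the median of all genes by 0.37 in MCD against C before PH, by -0.32 in M+Fc-GLP-1 against MCD before PH and by -0.62 in the interaction. Relative to that median the markers' median difference was 1.69 in MCD against C before PH. It is the same with the 75th percentile by construction, because each scaling subtracts 1 value per array, and is no check. Over the settings other than leaving out an array, the number of all genes called ranged from 48 to 2465 for C+Fc-GLP-1 against C before PH (445 as reported), 1448 to 6761 for M+Fc-GLP-1 against MCD before PH (1524), 1326 to 2514 for M+Fc-GLP-1 against C+Fc-GLP-1 before PH (2182) and 522 to 2566 for the interaction (1304). After PH it ranged from 1611 to 2734 for MCD against C (2555), 69 to 406 for C+Fc-GLP-1 against C (434), 769 to 1405 for M+Fc-GLP-1 against MCD (1370) and 1780 to 2875 for M+Fc-GLP-1 against C+Fc-GLP-1 (2702). Over time it ranged from 1165 to 3114 in C (2944), 53 to 1342 in C+Fc-GLP-1 (176), 98 to 926 in M+Fc-GLP-1 (361) and 4 to 19 for the difference in time course (20). The authors' values gave no comparison over time. The change of Marco minus Clec4f with the MCD diet under Fc-GLP-1, computed under alternatives chosen after seeing the data, was 1.25 before and 1.78 after PH with normexp, and 1.29 and 1.79 with the authors' values. Signal over background limits Cd163, Timd4, which was well above background on 30 of the 32 arrays, and Msr1, on 31 by its brightest probe. For Timd4 and Msr1 the arrays not well above background were all of M+Fc-GLP-1 before PH.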
